A study of Mus musculus with 12 samples.

Results

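Disease-associated microglia are a state that microglia take on in neurodegeneration, and 31 genes that mark or serve this state were followed in the cortex of progranulin-deficient mice. The genes were chosen by symbol, as receptors, lipid-handling proteins, lysosomal proteins, secreted factors and regulators described for these cells, from the 27179 genes of a count table of 12 libraries. Earlier results of these data were known when they were chosen, so shares set beside those of all genes are descriptions and not tests. All 31 were found in the table, and 26 of them carried enough reads to be tested among 15298 genes. The study set 3 genotypes of 4 libraries each side by side. The WT group was Grn+/+, with animals of 287 days (replicate 1) and 375 days (replicates 2 to 4). The KO group was Grn-/-, labelled progranulin null, at 308 days (replicate 1) and 282 days (replicates 2 to 4). The MUT group was Grn-/- with the GRNmEx5 allele, described in the labels as mutant humanized and progranulin deficient, at 287, 272, 309 and 282 days for replicates 1 to 4. KO and MUT thus share the Grn-/- genotype and are called the null groups here, and how the human sequence in MUT is driven is not given in the sources used here. Labelled male were WT 2, 3 and 4, KO 1 and 2 and MUT 3, and the other libraries were labelled female. Whether each library is from its own animal is not stated in the labels. The 4 MUT libraries all differ in age, whereas WT 2 to 4, and likewise KO 3 and 4, share age and labelled sex. The p-values refer to the spread among the libraries, which may in part be technical.

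Progranulin is a secreted protein that cells take up and cut into granulins in the lysosome, and in the brain microglia are a main source of it. The full disease-associated state depends in part on the lipid-sensing receptor Trem2, which signals through its adaptor Tyrobp (DAP12). The state brings up genes for lipid uptake, lysosomal digestion and secretion while genes of resting microglia go down. The question here was how far these genes differed in bulk cortex of Grn-/- mice, with or without the human mutant allele.

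Grn itself, on chromosome 11 (mm10, 102430322 to 102436809, plus strand), was measured at 57.2, 59.9, 57.6 and 57.0 CPM (counts scaled to a common library size) in WT replicates 1 to 4. It was at 12.9, 10.8, 13.4 and 14.0 CPM in KO and at 11.5, 13.8, 13.3 and 15.3 CPM in MUT, so all 8 null libraries lay below all 4 WT libraries. Reads on Grn remained in the null groups, at 22% of the WT mean in KO and 23.2% in MUT. Library totals ran from 16381221 to 20782195 counts, and the neocortical genes Tbr1 and Cux2 were at 94.2 CPM or more in every library. Some libraries stood apart. The summed level of 8 choroid plexus markers was 669 CPM in WT 4, 1406 in MUT 1 and 2000 in KO 3, and at most 54.7 in the other 9. The summed level of 8 striatal neuron markers was 454, 777 and 1477 CPM in WT 2, 3 and 4 and 174 to 305 CPM in the other 9. The WT libraries with high striatal markers are those aged 375 days and labelled male, so age, labelled sex and dissection cannot be told apart within WT. All 8 null libraries were from animals of 272 to 309 days and had low striatal markers, and only WT 1 resembled them in both. Genotype therefore cannot be fully told apart from age and dissection in any comparison against WT. Fits without WT 1, also those of libraries labelled male, hold no WT animal under 310 days and no WT library low in striatal markers. In them, genotype cannot be told apart from age and dissection at all. Counts of Xist and Ddx3y went against the sex label in all 12 libraries, which leaves the same split of the libraries under the opposite name.

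Against WT, 2 of the 26 tested genes rose in KO, Lyz2 and Tyrobp, and none fell (edgeR quasi-likelihood test, adjusted over all genes, threshold 0.05). Over all genes tested, 0.144% were called higher and 0.346% lower in this comparison. In 5 members, Trem2, Tyrobp, Lyz2, Cd68 and Cd63, every KO library lay above every WT library, which held for 4.29% of all genes. Log2 fold changes were above 0 for 20 of the 26, against 51.3% of all genes, and at an unadjusted p under 0.05, 7 were higher (7.92% of all genes) and 0 lower (9.71% of all genes). In none was every KO library below every WT library (4.82% of all genes). The median log2 fold change of the 26 was 0.17, beside 0.005 over all genes, and it was 0.11 without WT replicate 1. This median describes the chosen genes and is not a test of them. Oligodendrocyte markers were higher in KO as well (8 of 8 with log2 fold changes above 0, median 0.31), and with their level as a term, chosen after seeing the data, the median of the 26 members was 0.09. DESeq2 called 5 members higher in KO, namely Trem2, Tyrobp, Lyz2, Cd68 and Cd63, against 1.43% of all genes.

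In MUT against WT, edgeR called 0 of the 26 members, and it called 0% of all genes higher and 0.0131% lower. At an unadjusted p under 0.05, 9 members were higher (4.84% of all genes) and 1, Cd52, was lower (6.02% of all genes), and DESeq2 called 2 higher, Lyz2 and Tyrobp, against 0.0916% of all genes. Every MUT library lay above every WT library for 5 members (3.37% of all genes), namely Tyrobp, Apoe, Lyz2, Cd68 and Cd63, and below every WT library for 1, Cd52 (3.72% of all genes). The median log2 fold change was 0.20, beside 0.004 over all genes. Both comparisons use the same 4 WT libraries, so the KO and MUT values below are given side by side and are not independent of each other. When KO and MUT were set together against WT, Lyz2 and Tyrobp were called higher, against 0.0458% of all genes. All 8 null libraries lay above all 4 WT libraries for Lyz2, Tyrobp, Cd68 and Cd63, that is 4 of 26 members, against 1.34% of all genes. At an unadjusted p under 0.05, 9 members were higher in the null groups (7.24% of all genes) and 1, Cd52, was lower (9.31% of all genes). In bulk tissue, a change in the number of cells of a type and a change in RNA per cell cannot be told apart, and this holds for each result that follows.

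**Figure D1:**
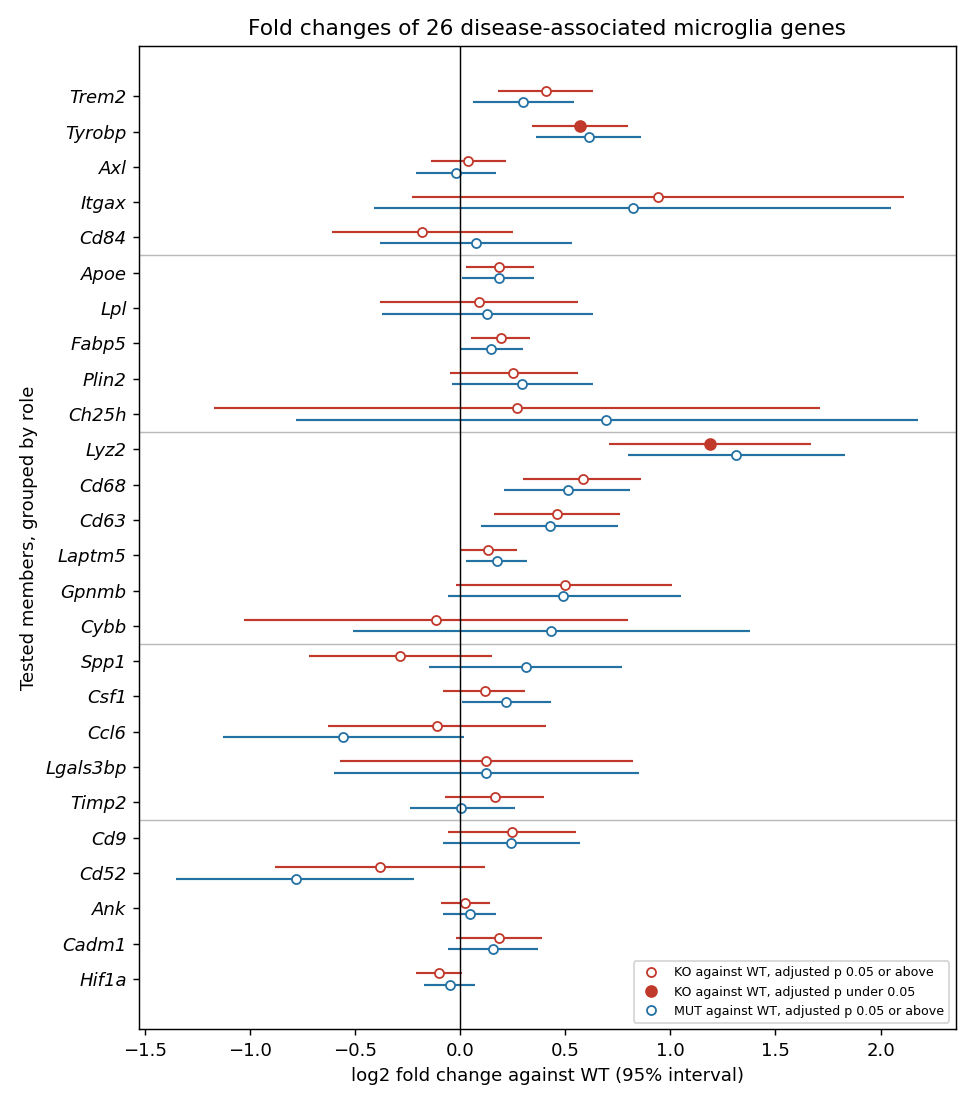
Log2 fold change against WT (x axis, with 95% intervals) of the 26 tested members (y axis, in blocks by role), for KO in red and MUT in blue; filled points have an adjusted p under 0.05 and open points do not. The only filled points are those of Lyz2 (1.19) and Tyrobp (0.57) in KO, and Cd52 is the lowest in MUT (-0.78).

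Among the receptors and adaptors, 1 of 5 tested genes rose in KO. Tyrobp, the adaptor that carries the signal of Trem2 through its tyrosine-based activation motif, lies on chromosome 7 (mm10, 30413788 to 30417582, plus strand). Its level in WT replicates 1 to 4 was 6.16, 8.07, 7.46 and 9.43 CPM. In KO it was 11.8, 10.6, 11.4 and 11.2 CPM, and in MUT it was 11.5, 10.7, 11.6 and 11.6 CPM. The 8 null libraries thus fell in a narrow band above the highest WT library, while WT was the more spread group (7.78 ± 1.36 CPM, SD, n = 4, against 11.2 ± 0.467 in KO and 11.3 ± 0.411 in MUT). Tyrobp rose in KO by 0.57 on the log2 scale, or 1.48-fold (SE 0.11, 95% interval 0.34 to 0.80, edgeR adjusted p = 0.044). Fold changes here and below are adjusted for labelled sex, whereas the group means are not. In MUT its log2 fold change was 0.61 (SE 0.11, 95% interval 0.36 to 0.86), with an edgeR adjusted p of 0.196.

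Trem2, the receptor for lipids and lipoproteins that sits at the head of this pathway, lies on chromosome 17 (mm10, 48346401 to 48352273, plus strand). It was at 8.80, 7.79, 8.70 and 10.3 CPM in WT replicates 1 to 4. In KO it was at 11.3, 11.5, 11.6 and 12.9 CPM, all above WT, and in MUT at 10.5, 10, 11.3 and 12.3 CPM, where MUT 2 lay below WT 4. The log2 fold change was 0.41 in KO (SE 0.10, 95% interval 0.18 to 0.63, edgeR adjusted p = 0.0827) and 0.30 in MUT (SE 0.11, 95% interval 0.06 to 0.54, edgeR adjusted p = 0.409), so neither passed. Trem2 in KO passed in DESeq2, in the fit without the sex term and in that with the homeostatic microglia level as a term.

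The other receptors showed no such separation. Axl, a receptor tyrosine kinase that binds Gas6, ranged from 45.5 to 49.1 CPM in WT, 44.2 to 53.9 in KO and 41.5 to 53.3 in MUT. Itgax, which encodes CD11c, was scarce, at 0.148 to 0.445 CPM in WT, 0.367 to 1.22 in KO and 0.370 to 0.688 in MUT. Its log2 fold changes of 0.94 in KO (95% interval -0.23 to 2.11) and 0.82 in MUT (95% interval -0.41 to 2.05) therefore carried wide intervals. Cd84, a homophilic receptor of the SLAM family, was at 2.26 to 3.40 CPM in WT, 2.15 to 3.38 in KO and 2.81 to 3.77 in MUT. Over the 5 tested receptors and adaptors the median log2 fold change was 0.41 in KO and 0.30 in MUT.

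Among lysosomal and phagosomal genes, Lyz2 had the largest fold change of the 26 in both null groups. Lyz2 encodes the lysozyme of macrophages and lies on chromosome 10 (mm10, 117277541 to 117282272, minus strand). It was at 2.20, 4.95, 6.08 and 4.54 CPM in WT replicates 1 to 4. In KO it was at 10.7, 8.65, 9.81 and 8.32 CPM, and in MUT at 11.7, 7.57, 10.4 and 8.75 CPM. Every null library was above every WT library, and WT 1 was the lowest of the 12. Lyz2 rose in KO by 1.19 on the log2 scale, or 2.28-fold (SE 0.22, 95% interval 0.71 to 1.67, edgeR adjusted p = 0.044). In MUT the log2 fold change was 1.31, or 2.49-fold (SE 0.24, 95% interval 0.80 to 1.83, edgeR adjusted p = 0.196). Its neighbouring paralog Lyz1 held 3 reads over the 12 libraries and was not tested.

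The calls for Lyz2 and Tyrobp in KO were close to the threshold. Leaving out any single one of WT 2, WT 4, MUT 2, MUT 3, MUT 4 or the 4 KO libraries ended both calls. The edgeR adjusted p was then 0.0544 to 0.171 for Lyz2 and 0.0558 to 0.171 for Tyrobp. Calls over all genes in KO fell as well, from 75 to between 1 and 11, except without KO 4, where 90 were called. Under these omissions the log2 fold changes were 1.12 to 1.33 for Lyz2 and 0.55 to 0.65 for Tyrobp. Over all 12 single omissions they ran from 0.91 to 1.35 for Lyz2, lowest without WT 1, and from 0.44 to 0.65 for Tyrobp. With age as a further term, the log2 fold change in KO was 2.16 for Lyz2 (edgeR adjusted p = 0.00987) and 0.90 for Tyrobp (edgeR adjusted p = 0.216), and both fits lean on WT 1 as the only WT library under 310 days. With the oligodendrocyte level as a term, a choice made after seeing the data, they were 1.04 for Lyz2 and 0.42 for Tyrobp, with edgeR adjusted p of 0.107 and 0.121. Other myeloid cells also make these transcripts. Their markers were at the following levels, where 8 border-associated macrophage markers summed to 28.9 to 38.0 CPM in WT, 29.4 to 33.7 in KO and 33.7 to 51.5 in MUT, and 8 monocyte and neutrophil markers summed to at most 0.605, 0.721 and 1.5 CPM. No marker in either list was at 0 in all libraries, none of the monocyte and neutrophil markers was tested, and 0 of 6 tested macrophage markers passed in any comparison. In MUT, 6 of these 6 had log2 fold changes above 0 (median 0.42), and 2 were higher at an unadjusted p under 0.05 (4.84% of all genes). In KO, 2 of the 6 were above 0 (median -0.14), and 0 had an unadjusted p under 0.05. The part of these other myeloid cells in the Lyz2 result was not tested.

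Cd68, a heavily glycosylated protein of the lysosomal membrane of phagocytes, lies on chromosome 11 (mm10, 69664371 to 69666062, minus strand). It was at 5.23, 5.45, 7.12 and 7.22 CPM in WT replicates 1 to 4, 8.88, 8.44, 10.8 and 8.99 CPM in KO and 8.37, 8.41, 9.46 and 8.81 CPM in MUT. All 8 null libraries lay above the highest WT library. The log2 fold change was 0.58 in KO (SE 0.13, 95% interval 0.30 to 0.86, edgeR adjusted p = 0.0655) and 0.51 in MUT (SE 0.14, 95% interval 0.21 to 0.81, edgeR adjusted p = 0.359), so neither passed. In KO it passed in 5 of 28 other settings, among them DESeq2 and the fits without WT 1 or without WT 3. Over all genes, 1620 of 15480 passed in KO without WT 1 and 170 of 15454 without WT 3.

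Promoter sequences are shown for Cd63, Cd68, Lyz2 and Trem2, 4 of the 5 members whose KO libraries all lay above WT, as part of the window before each annotated start. RefSeq (GRCm38.p6) gave 29 promoter windows for 25 of the 31 members (all but Tyrobp, Fabp5, Lpl, Ccl4, Cadm1 and Cd52), from 250 bases before to 50 bases after the start. The windows were searched on both strands for GAGGAAGT (core of PU.1, the myeloid lineage factor), CACGTG (core of the CLEAR element of lysosomal genes) and TGAGTCA (AP-1), which do not overlap one another. The 200 bases from 250 to 51 before the start, 5′ to 3′ on the gene's strand, were chr10:128909095-128909294 for Cd63, chr11:69666221-69666420 for Cd68, chr10:117282323-117282522 for Lyz2 and chr17:48346151-48346350 for Trem2, with the AP-1 letters in capitals:
Cd63: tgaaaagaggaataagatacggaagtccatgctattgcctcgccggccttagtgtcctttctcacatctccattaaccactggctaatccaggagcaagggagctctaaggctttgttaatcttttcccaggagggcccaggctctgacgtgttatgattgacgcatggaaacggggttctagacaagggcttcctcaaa
Cd68: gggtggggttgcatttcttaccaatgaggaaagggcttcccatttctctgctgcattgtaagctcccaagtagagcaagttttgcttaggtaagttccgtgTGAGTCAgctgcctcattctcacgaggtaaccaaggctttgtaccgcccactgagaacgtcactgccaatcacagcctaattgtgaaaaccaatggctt
Lyz2: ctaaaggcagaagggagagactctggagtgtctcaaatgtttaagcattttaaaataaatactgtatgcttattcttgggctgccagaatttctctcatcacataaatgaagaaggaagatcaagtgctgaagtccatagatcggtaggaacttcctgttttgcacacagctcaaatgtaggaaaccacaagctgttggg
Trem2: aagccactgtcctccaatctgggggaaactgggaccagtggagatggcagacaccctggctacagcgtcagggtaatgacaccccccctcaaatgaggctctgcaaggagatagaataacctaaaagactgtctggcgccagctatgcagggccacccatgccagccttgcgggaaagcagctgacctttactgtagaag

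The Cd68 window held the AP-1 letters at 149 and at 24 bases before the start, the latter outside the stretch shown. The Cd63, Lyz2 and Trem2 windows held none of the 3 motifs. The Cd63 stretch lies after base 128908919, where the gene begins in the counts, and so within the gene as counted. Over the members, 4 of 29 windows (13.8%), those of Cd68, Cd84, Gpnmb and Itgax, held the AP-1 letters, against 5.20% of 32851 promoters. The PU.1 letters were in 1 of 29 (Spp1, 3.45%) against 3.20%, and the CLEAR letters in 2 of 29 (Hif1a and Plin2, 6.90%) against 7.15%. A match to these letters is a description of the sequence only.

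Cd63, a tetraspanin of late endosomes and lysosomes that many cell types make, lies on chromosome 10 (mm10, 128908919 to 128912822, plus strand). It was at 26.4, 26.1, 26.3 and 30.8 CPM in WT replicates 1 to 4, 33.2, 38.6, 49.3 and 35.8 CPM in KO and 50, 39.1, 32.3 and 36.7 CPM in MUT. All 8 null libraries lay above all WT libraries while KO and MUT overlapped each other, and in each group the highest library was the one with high choroid plexus markers. For KO the log2 fold change was 0.46 (SE 0.14, edgeR adjusted p = 0.120), and for MUT it was 0.43 (SE 0.15, edgeR adjusted p = 0.397). Without the 3 libraries high in choroid plexus genes it was 0.45 and 0.43. With the oligodendrocyte level as a term, chosen after seeing the data, it was 0.11 and 0.27. In MUT it was also 0.28 without WT 1 and 0.22 in libraries labelled male alone, where MUT 3 is the only MUT library. Among animals under 310 days, where WT 1 is the only WT library, it was 0.72 in KO and 0.66 in MUT. The 8 oligodendrocyte markers summed to 3073 to 4348 CPM in WT, 4277 to 5138 in KO and 3703 to 4429 in MUT, with 0 of 8 past the adjusted threshold and 7 higher in KO at an unadjusted p under 0.05.

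The remaining lysosomal genes overlapped between WT and the null groups. Laptm5, a lysosomal transmembrane protein of blood-derived cells and microglia, was at 24.0, 27.5, 29.5 and 28.6 CPM in WT, 29.7, 28.4, 30.0 and 30.0 in KO and 29.9, 27.8, 32.1 and 30.0 in MUT. Its log2 fold change was 0.13 in KO and 0.18 in MUT (SE 0.07, edgeR adjusted p = 0.411; 0.09 without WT 1), and WT 1 and WT 2 lay below every null library. Gpnmb, a glycoprotein of phagosomes and lysosomes, was at 2.70, 4.17, 1.83 and 2.92 CPM in WT, 5.15, 3.56, 4.05 and 3.13 in KO and 3.97, 4.34, 4.01 and 2.92 in MUT. WT 2 lay among the higher null libraries, and for both null groups together the log2 fold change was 0.49 (SE 0.22, edgeR adjusted p = 0.282). Cybb, the catalytic subunit of the phagocyte NADPH oxidase, was at 0.418 to 0.946 CPM in WT, 0.419 to 0.998 in KO and 0.529 to 1.5 in MUT. The median log2 fold change of the 6 tested lysosomal and phagosomal genes was 0.48 in KO and 0.46 in MUT.

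**Figure D2:**
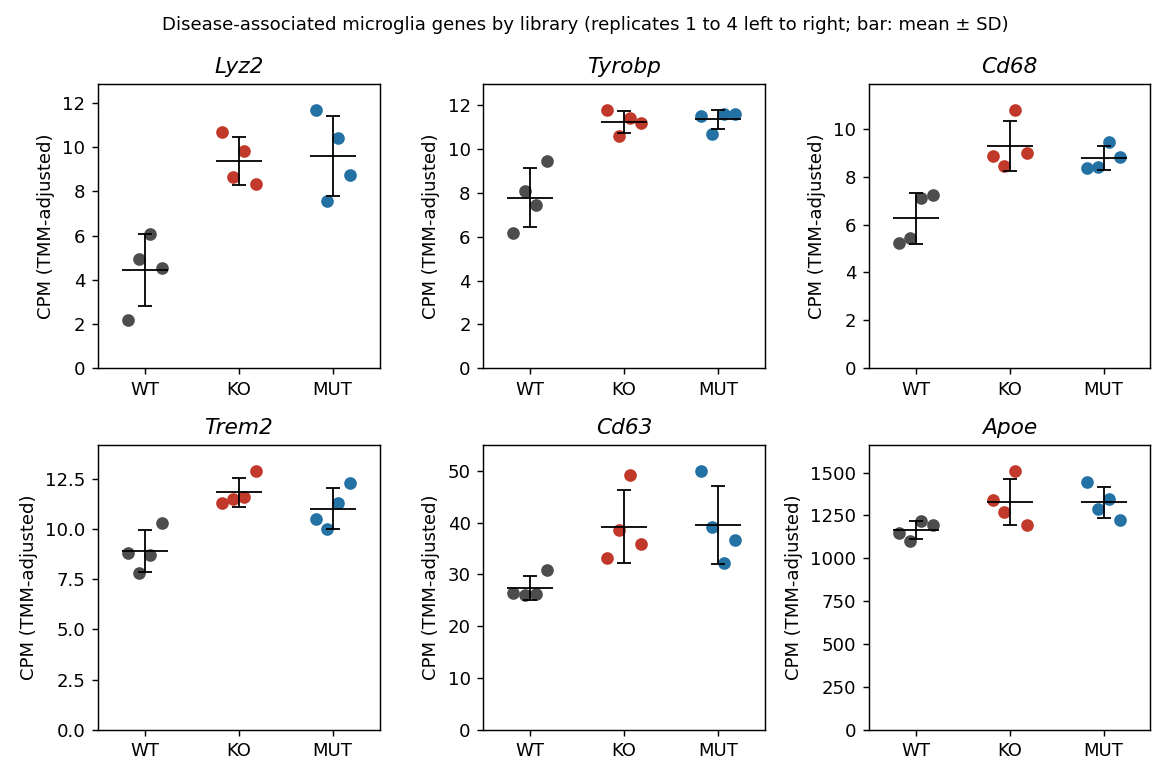
CPM (y axis, from 0) of 6 members in WT, KO and MUT (x axis), with 1 point per library in replicate order from left to right and bars for the mean ± SD of 4 libraries. For Lyz2, Tyrobp, Cd68 and Cd63 all 8 null points lie above all WT points, while Trem2 in MUT and Apoe in KO overlap WT.

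None of the 5 lipid-handling genes passed. Apoe, the main lipoprotein component of the brain, which astrocytes make as well as microglia, lies on chromosome 7 (mm10, 19696244 to 19699166, minus strand). It was at 1149, 1100, 1217 and 1196 CPM in WT, 1338, 1270, 1510 and 1194 CPM in KO and 1443, 1288, 1347 and 1225 CPM in MUT. MUT did not overlap WT, whereas KO 4 lay within WT, and the highest KO and MUT libraries were those with high choroid plexus markers. For KO the log2 fold change was 0.19 (SE 0.07, edgeR adjusted p = 0.212), and for MUT it was 0.18 (SE 0.08, edgeR adjusted p = 0.435). With the oligodendrocyte level as a term it was 0.06 and 0.13. The 8 astrocyte markers summed to 4009 to 4345 CPM in WT, 3836 to 4098 in KO and 4073 to 4172 in MUT.

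Fabp5, an intracellular carrier of fatty acids, was at 40.2, 36.1, 35.0 and 36.2 CPM in WT, 45.3, 39.9, 43.8 and 39.9 in KO and 41.2, 38.1, 43.3 and 41.3 in MUT. WT 1 was the only WT library within the null range. For KO the log2 fold change was 0.19 (SE 0.06, edgeR adjusted p = 0.149), and for MUT it was 0.15 (SE 0.07, edgeR adjusted p = 0.459). Among animals under 310 days, where WT 1 is the only WT library, it was 0.04 and 0.01, and without WT 1 Fabp5 passed in KO (log2 fold change 0.27, edgeR adjusted p = 0.0228). Without WT 1, 1620 of 15480 genes passed in KO. Of the 932 exonic bases of Fabp5, 353 are shared with a gene on the opposite strand, and whether reads were counted by strand is not given in the sources used here. Such sharing also affects Lgals3bp (1267 of 2168 bases), Lpl (918 of 4049), Cybb (571 of 4752) and Cadm1 (220 of 4387). Plin2, a lipid droplet coat protein, was at 3.46 to 4.89 CPM in WT, 4.02 to 5.15 in KO and 4.13 to 5.24 in MUT. Lpl, which frees fatty acids from lipoproteins, was at 14.5 to 24.7 CPM in WT, 15.4 to 22.3 in KO and 12.5 to 23.5 in MUT. Ch25h, which makes 25-hydroxycholesterol, was near the detection floor, at 0.330 to 0.418 CPM in WT, 0.157 to 0.615 in KO and 0.159 to 1.76 in MUT, with log2 fold changes of 0.27 in KO (95% interval -1.17 to 1.71) and 0.70 in MUT (95% interval -0.78 to 2.18). All 5 lipid genes had log2 fold changes above 0 in both comparisons, with medians of 0.19 and 0.18.

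Of the secreted factors, none passed against WT. Csf1, a ligand of the microglial survival receptor, was at 18.9, 24.4, 23.8 and 22.6 CPM in WT, 24.7, 22.2, 25.6 and 22.6 in KO and 26.2, 21.1, 27.0 and 25.5 in MUT. MUT 2 lay inside the WT range, and the log2 fold change in MUT was 0.22 (SE 0.10, edgeR adjusted p = 0.449) and 0.11 without WT 1. Spp1, which encodes osteopontin, was at 8.20, 5.73, 6.13 and 9.61 CPM in WT, 6.57, 6.45, 6.10 and 5.75 in KO and 13.5, 9.21, 7.40 and 8.75 in MUT. KO was the narrow group here and every MUT library lay above every KO library, while WT spanned both. Ccl6, a chemokine, was at 0.835 to 1.71 CPM in WT, 0.996 to 1.55 in KO and 0.688 to 1.43 in MUT. Lgals3bp, a secreted glycoprotein that binds galectins, was at 9.74 to 16.6 CPM in WT, 9.33 to 22.7 in KO and 10.6 to 17.8 in MUT, and its highest library was KO 3.

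Timp2, an inhibitor of metalloproteinases, was at 426, 302, 298 and 305 CPM in WT replicates 1 to 4, 349 to 396 in KO and 301 to 369 in MUT. WT 1 was above every null library and the other 3 WT libraries were below every KO library. Cadm1, a cell adhesion molecule that neurons make too, showed the same split within WT, at 251, 180, 169 and 163 CPM, with 215 to 228 in KO and 219 to 229 in MUT. Without WT 1, Timp2 in KO (log2 fold change 0.37, edgeR adjusted p = 0.00681), Cadm1 in KO (0.38, edgeR adjusted p = 0.00104) and Cadm1 in MUT (0.39, edgeR adjusted p = 0.00216) passed. In that fit edgeR called 1620 of 15480 genes in KO and 1030 in MUT, in place of 75 and 2 with all 12 libraries. In animals under 310 days the same log2 fold changes were -0.23, -0.18 and -0.17, and with the striatal marker level as a term they were -0.03, -0.02 and -0.06. With all 12 libraries they were 0.16, 0.18 and 0.15 and did not pass. These genes were singled out after their values were seen.

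Of the other membrane proteins and regulators, Cd52, a short glycoprotein of the leukocyte surface, was the member with the lowest fold change. It was at 0.990, 1.17, 1.14 and 1.25 CPM in WT, 0.788, 1.05, 0.832 and 0.726 in KO and 0.822, 0.476, 0.573 and 0.608 in MUT. All MUT libraries lay below all WT libraries, while KO 2 lay within WT. The log2 fold change was -0.78 in MUT (SE 0.26, 95% interval -1.35 to -0.22, edgeR adjusted p = 0.395) and -0.38 in KO, and neither passed. Cd9, a tetraspanin, was at 20.4 to 29.1 CPM in WT, 25.3 to 37.2 in KO and 27.5 to 36.0 in MUT, with the highest level of each group in the library high in choroid plexus markers. Ank, a pyrophosphate and citrate transporter, was at 242 to 280 CPM in WT, 252 to 277 in KO and 254 to 273 in MUT. Hif1a, the oxygen-sensing transcription factor, was at 75.1 to 88.0, 75.4 to 82.0 and 78.0 to 83.4 CPM.

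Clec7a, Cst7, Ccl3, Ccl4 and Lgals3 had too few reads to pass the low-count filter. Clec7a, the beta-glucan receptor Dectin-1 and a hallmark of the disease-associated state, held 14 reads over the 4 WT libraries, 32 over KO and 26 over MUT. Cst7, an inhibitor of lysosomal cathepsins, held 8, 15 and 10 reads. The chemokine genes Ccl3 and Ccl4 held 5, 13 and 21 reads and 4, 9 and 5 reads, and Lgals3, a galectin, held 21, 32 and 27. No library held more than 13 reads of any of these genes, and in the fit without the filter none of the 5 passed. There Clec7a had a log2 fold change in KO of 1.12 (SE 0.52, edgeR adjusted p = 0.369). Ccl3 had one in MUT of 1.82 (SE 0.85, edgeR adjusted p = 0.591), and both rest on few reads. These were the 2 of the 5 genes with an unadjusted p under 0.05 against WT.

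**Figure D3:**
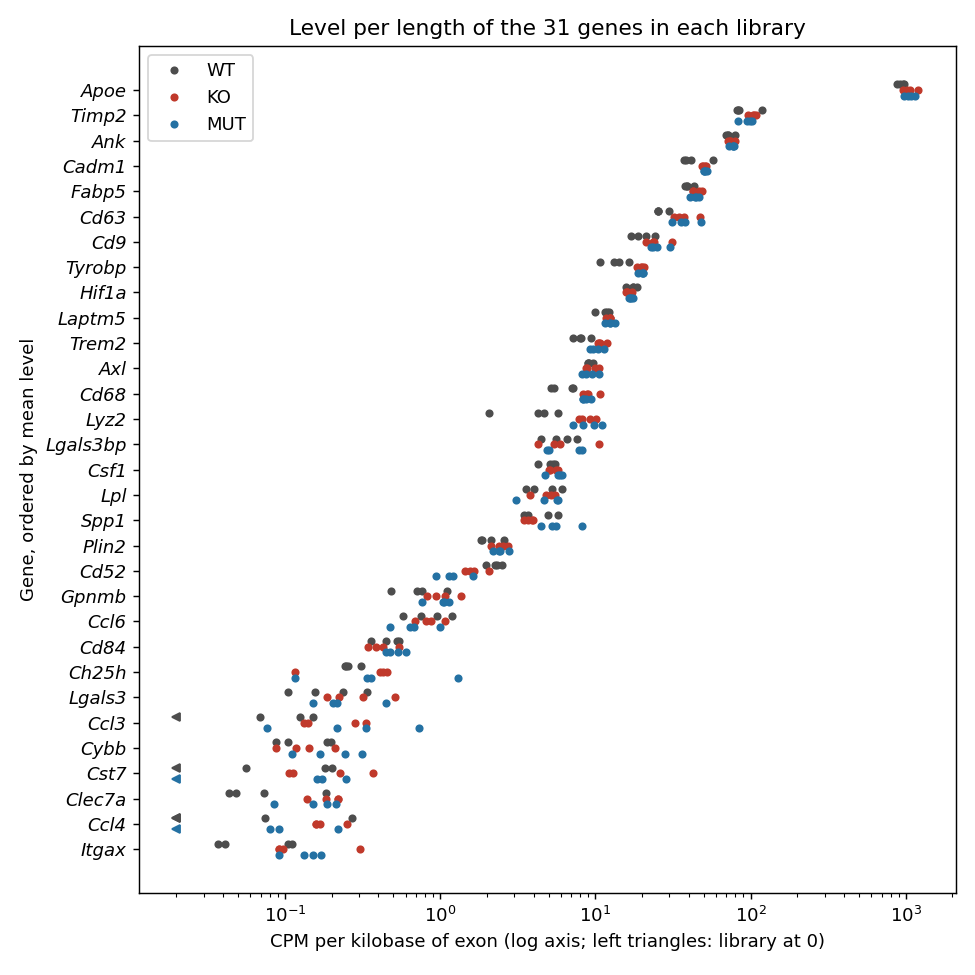
CPM per kilobase of exon (x axis, log scale) of all 31 members (y axis), with 1 point per library in grey for WT, red for KO and blue for MUT; left-pointing triangles mark libraries at 0. Apoe is at the top with a mean of 1018 and Itgax at the bottom with a mean of 0.118.

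Per kilobase of exon, the members covered a wide range of levels. Apoe was at a mean of 1018 CPM per kilobase over the 12 libraries, followed by Timp2 at 96.9, Ank at 74.6, Cadm1 at 48.2, Fabp5 at 43.0 and Cd63 at 34.1. These genes are made by several brain cell types. Tyrobp was at 17.8, Laptm5 at 12.1, Trem2 at 9.73, Cd68 at 8.04 and Lyz2 at 7.39 CPM per kilobase. Clec7a, Cst7 and Itgax were among the scarcest.

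Between MUT and KO, edgeR called 0 of the 26 members, against 0% of all genes called higher and 0.00654% lower, and DESeq2 called 0 as well, against 0.0589% of all genes called higher. At an unadjusted p under 0.05, 1 member, Spp1, was higher in MUT (3.56% of all genes) and 0 were lower (2.12% of all genes). Spp1 was also the only one in which every MUT library lay above every KO library (3.37% of all genes), and in none did every MUT library lie below every KO library (1.85% of all genes). The log2 fold change of Spp1 was 0.60 (SE 0.20, 95% interval 0.16 to 1.03, edgeR adjusted p = 0.743). It was 0.42 without MUT 1 and 0.36 without the 3 libraries high in choroid plexus genes. In libraries labelled male alone it was 0.18, where MUT 3 is the only MUT library. For Lyz2 the MUT minus KO difference was 0.12 on the log2 scale (95% interval -0.32 to 0.57), and for Tyrobp it was 0.04 (95% interval -0.18 to 0.27). The median over the 26 was 0.00, beside -0.004 over all genes. These intervals bound the difference and do not show that the genotypes act alike. Of the 6 tested border-associated macrophage markers, 5 were higher in MUT than in KO at an unadjusted p under 0.05 and 0 past the adjusted threshold, and their part in the Spp1 values was not tested.

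**Figure D4:**
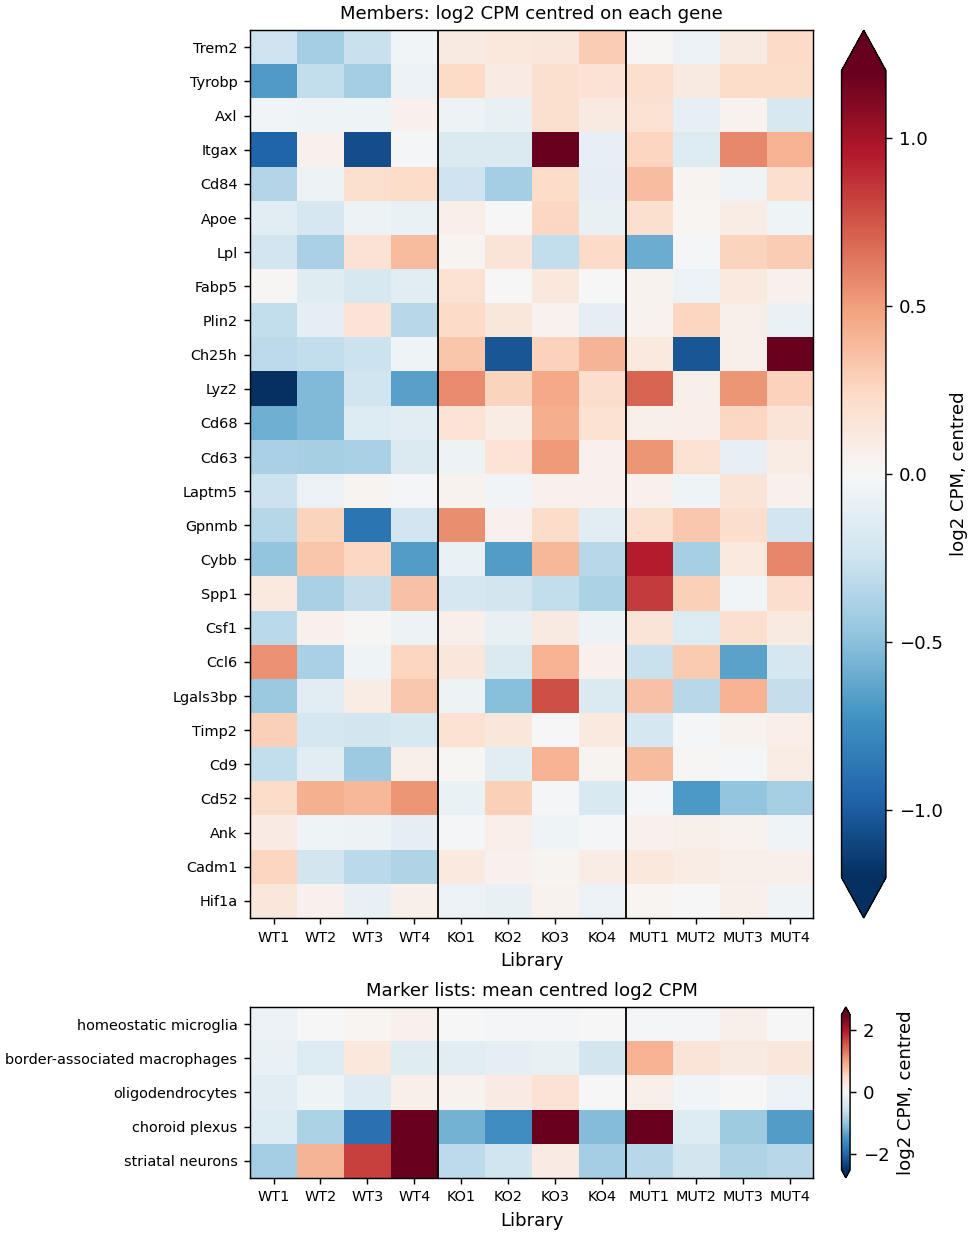
Log2 CPM (colour), with the mean of each gene across libraries subtracted, for the 26 tested members (upper panel, rows) and the mean of the same quantity for 5 marker lists (lower panel, rows), with libraries as columns in the order WT, KO, MUT. KO 3 and MUT 1 have the highest member levels (0.23 and 0.18) and also high choroid plexus levels (3.70 and 3.32, beyond the colour scale).

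The mean centred log2 CPM of the 26 members was -0.24, -0.15, -0.16 and -0.04 in WT replicates 1 to 4. It was 0.08, -0.08, 0.23 and 0.01 in KO and 0.18, -0.05, 0.09 and 0.13 in MUT. The groups overlapped, since KO 2 and MUT 2 lay below WT 4. WT 4, KO 3 and MUT 1, the highest of their groups, had choroid plexus levels of 2.47, 3.70 and 3.32, and the remaining 9 libraries had levels from -1.87 to -0.34. Without these 3 libraries the median log2 fold change of the members was 0.17 in KO and 0.20 in MUT over the 25 members then tested. The same fit called 0 members, with an edgeR adjusted p in KO of 0.0933 for Lyz2 and 0.0900 for Tyrobp. Over all genes it called 2 in KO and 3 in MUT.

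Of 12 markers of homeostatic microglia, 0 passed in any comparison in edgeR, 1 was higher in KO and 0 in MUT at an unadjusted p under 0.05, and the median log2 fold change was -0.02 in KO and 0.08 in MUT. They summed to 348 to 401 CPM in WT, 366 to 391 in KO and 373 to 403 in MUT, and none was at 0 in all libraries. P2ry12, the purinergic receptor of resting microglia, was at 27.9 ± 1.74 CPM in WT, 28.6 ± 1.15 in KO and 29.7 ± 2.22 in MUT (SD, n = 4). Tmem119 was at 19.2 ± 1.49, 20.1 ± 1.24 and 20.5 ± 0.916 CPM. With the mean centred log2 CPM of these markers as a term, a choice made after seeing the data, the log2 fold changes in KO were 1.19 for Lyz2 (edgeR adjusted p = 0.0266) and 0.56 for Tyrobp (edgeR adjusted p = 0.0194).

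A list of 16 genes tied to Trem2 and Tyrobp signalling, among them Syk, Plcg2 and Inpp5d, gave 13 tested genes and no call in any comparison. The list is not confined to steps downstream of Trem2, and its member Csf1r is also among the homeostatic markers. Their median log2 fold change was -0.03 in KO and 0.03 in MUT, with 1 lower in KO and 0 in MUT at an unadjusted p under 0.05. Of 34 further genes of the disease-associated state, 30 were tested, and 2 rose in KO, against 0.144% of all genes. Ctss, a lysosomal protease of microglia, was at 49.0, 50.3, 49.2 and 54.7 CPM in WT, 66.6, 62.0, 72.7 and 65.2 in KO and 62.2, 63.9, 65.2 and 59.0 in MUT, with no overlap between WT and either null group. It rose in KO by 0.39 on the log2 scale (SE 0.06, edgeR adjusted p = 0.0263), and its log2 fold change in MUT was 0.30 (edgeR adjusted p = 0.277). Fth1, the heavy chain of ferritin, rose in KO by 0.27 on the log2 scale (SE 0.04, edgeR adjusted p = 0.0263) and had a log2 fold change of 0.11 in MUT (edgeR adjusted p = 0.417). Both calls ended without any single one of WT 2, WT 4, MUT 2, MUT 3, MUT 4, KO 1, KO 2 or KO 3. The edgeR adjusted p was then 0.0513 to 0.116 for Ctss and 0.0547 to 0.162 for Fth1, and 1 to 11 genes were called in KO, in place of 75. Log2 fold changes then ran from 0.35 to 0.44 for Ctss and from 0.25 to 0.29 for Fth1. Both calls also ended without the choroid plexus libraries (edgeR adjusted p = 0.0586 and 0.0900), with the striatal level as a term (0.0673 and 0.124) and with age as a term (0.276 and 0.482). That of Ctss ended with the oligodendrocyte level as a term (log2 fold change 0.28, edgeR adjusted p = 0.0699). Over all genes, these fits in turn called 2, 1, 2 and 162 in KO. The median log2 fold change of the 30 genes was 0.14 in KO and 0.15 in MUT.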

How the data were processed

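Directional libraries (NEBNext Ultra II) were prepared from mouse cortex RNA, per the labels' protocols. The authors deposited raw counts of reads per gene in 1 table of 12 libraries, with Entrez IDs, exon coordinates and exon length, per the file headers. Build mm10, R 4.1.2 and DESeq2 1.34.0 are listed in the submitters' processing notes, whereas aligner, counter and strandedness of counting were not given in the sources used here. Of 27179 genes, 1049 had no symbol and stayed in the totals and tests.

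Libraries were matched to samples by column name. In 66 pairwise chi-square tests the lowest ratio to the degrees of freedom was 3.46, so no pair agreed within sampling noise. Genes were kept by filterByExpr in edgeR 4.0.16 (R 4.3.3; minimum count 10, minimum total 15), which left 15298; 10 counts are 0.546 CPM in the median library. Counts were scaled by TMM and fitted with group and labelled sex in 1 robust quasi-likelihood model of all 12 libraries (8 residual degrees of freedom, common biological coefficient of variation 0.101). Labelled sex was unbalanced, with WT 1 the only labelled female WT library and MUT 3 the only labelled male MUT library. Adjustment was Benjamini-Hochberg over all genes, with a threshold of 0.05. Levels are CPM on TMM-scaled sizes, and list levels are means of centred log2 CPM (prior count 2). The pipeline was tested on simulated data.

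Members and lists were chosen with earlier results of these data known. Described library by library were members past the threshold, with an unadjusted p under 0.05, or without overlap between WT and a null group; up to 4 called genes were named per other list. Alternatives covered scaling, filters, DESeq2 1.42.0, covariates, library subsets and each library left out.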

Additional observations from a re-analysis of the deposited data

Results flagged for a closer look

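Among 78 sets of 4 libraries (26 members in 3 groups), 6 held a library far from the other 3 by Dixon's criterion at the 95% level, and chance alone flags about 5% of sets. Timp2, the metalloproteinase inhibitor, was at 426 CPM in WT 1 against 298 to 305 CPM in the other WT libraries. Cd63 was at 30.8 CPM in WT 4, the WT library with high choroid plexus markers, against 26.1 to 26.4 CPM. Itgax was at 1.22 CPM in KO 3, the KO library with high choroid plexus markers, against 0.367 to 0.391 CPM. Hif1a was at 82.0 CPM in the same library, against 75.4 to 76.1 CPM. Ch25h was at 0.157 CPM in KO 2, against 0.555 to 0.615 CPM, a difference that rests on few reads. Tyrobp was at 10.7 CPM in MUT 2, against 11.5 to 11.6 CPM, and still above every WT library.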

How the results depend on the processing

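The counts and medians were recomputed under 28 other settings, 5 of them chosen after seeing the data (no robust estimation, 3 marker levels as terms, labelled male libraries alone). Of the tested members called, 2 in KO became 5 under DESeq2, 4 without the sex term and 4 with the homeostatic microglia level as a term, while calls over all genes rose from 75 to 647, 294 and 332. In libraries labelled male 3 were called (Lyz2, Timp2 and Cadm1) of 1163 over all genes. The 2 in KO became 1 with age as a term, of 2 calls over all genes. They became 0 without the 3 libraries high in choroid plexus genes and with the striatal or oligodendrocyte level as a term. Calls over all genes were then 2, 1 and 162. For both null groups together, 2 became 5 without the sex term and 4 under DESeq2 or in libraries labelled male, with 550, 522 and 1269 calls over all genes in place of 23. It became 1 with age or the striatal level as a term, of 3 and 4 calls over all genes. It became 0 by library size alone, with a filter at 1 CPM in 4 libraries, without the choroid plexus libraries and with the oligodendrocyte level as a term. Calls over all genes were then 7, 8, 5 and 36. For MUT, 0 became 2 under DESeq2 and 1 with age as a term, with 52 and 3 calls over all genes in place of 2. MUT against KO gave 0 in all settings. The cause was not tested.

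Leaving out each library in turn gave 0 to 6 calls in KO, 0 to 3 in MUT and 0 to 5 for both. The highest counts in KO (6) and MUT (3) came without WT 1, beside 1620 and 1030 calls over all genes. Without it, no WT library resembles the null libraries in age or striatal markers. Under these omissions medians ran from 0.11 to 0.20 in KO, 0.17 to 0.25 in MUT, 0.14 to 0.21 for both and -0.05 to 0.08 for MUT against KO. Other settings moved the medians for KO, MUT and both to 0.37, 0.35 and 0.38 (age as a term), 0.36, 0.37 and 0.37 (under 310 days) and 0.38, 0.38 and 0.37 (labelled female), all of which hold WT 1 as the only young or labelled female WT library, assumed to vary like the others. With the striatal level as a term the medians were 0.34 in MUT and 0.28 for both. The median in KO was 0.09 with the oligodendrocyte level as a term and 0.11 in libraries labelled male. The fold changes of Timp2 in KO, Cadm1 in KO and Cadm1 in MUT changed sign, to -0.22, -0.16 and -0.12 with age as a term, -0.23, -0.18 and -0.17 under 310 days, -0.23, -0.19 and -0.16 in libraries labelled female, and -0.03, -0.02 and -0.06 with the striatal level as a term. Lyz2 in KO stayed between 0.90 and 2.16 and passed in 14 of 28 settings, and Tyrobp stayed between 0.42 and 0.90 and passed in 11.

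Over all genes, edgeR called 75 in KO, against 1620 without WT 1 and 1 without WT 2. No pairing by replicate number was seen, as only 1 of 12 same-number pairs correlated above 0.1 (r from -0.38 to 0.29) and 2 of 12 libraries correlated best with their own number. These correlations also carry the differences in choroid plexus and striatal markers, so they cannot exclude a pairing. With the replicate number as a block, 0 members were called in KO and 0 for both null groups, of 2 and 3 calls over all genes. Lyz2 in KO then had a log2 fold change of 1.19 (edgeR adjusted p = 0.115). The calls of Ctss and Fth1 in KO ended under the block too (edgeR adjusted p = 0.0917 for both).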
